A study of Mus musculus with 29 samples.

Results

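The genes examined are the 7 cyclin-dependent kinase (CDK) inhibitors that bear the symbols Cdkn1a, Cdkn1b, Cdkn1c, Cdkn2a, Cdkn2b, Cdkn2c and Cdkn2d, taken by symbol from a table of 22537 genes. All 7 are in the table. They were followed in the tibialis anterior (TA), a fast muscle of the lower leg, of male C57BL/6 mice aged 6 months (6m, 7 mice), 24 months (24m, 7 mice) and 28 months or more (28m, 8 mice), for which the labels give no treatment. Poly-A RNA of the muscle was sequenced in 29 libraries from 22 mice. The 24m mice were sequenced in a first run together with the 6m mice, and the 28m mice in a second run together with a second library of each of the same 7 mice at 6m. Each old age was therefore compared with the 6m libraries of its own run, and the comparisons share their 6m mice.

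CDK inhibitors hold back the kinases that drive a cell from one phase of division to the next. The INK4 proteins (p16 from Cdkn2a, p15 from Cdkn2b, p18 from Cdkn2c and p19 from Cdkn2d) bind CDK4 and CDK6 and keep them from D-type cyclins, so that the retinoblastoma protein stays active and E2F factors stay silent. The Cip/Kip proteins (p21 from Cdkn1a, p27 from Cdkn1b and p57 from Cdkn1c) bind whole cyclin-CDK complexes. Of the 7, Cdkn2a and Cdkn1a are the transcripts most often read as marks of cellular senescence, a lasting arrest of division accompanied by secreted inflammatory proteins. In muscle, several members also act when myoblasts leave the cell cycle to form fibres, and Cdkn1a is known to rise in denervated muscle.

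In GRCm38, Cdkn1a lies on chromosome 17 (29090976-29100727, plus strand), Cdkn1b on chromosome 6 (134920401-134925513, plus strand) and Cdkn1c on chromosome 7 (143458339-143461050, minus strand). Cdkn2a (89274471-89294653) and Cdkn2b (89306299-89311039) are neighbours on the minus strand of chromosome 4, Cdkn2c lies farther along it (109660876-109667189, minus strand), and Cdkn2d is on chromosome 9 (21288410-21291407, minus strand). Reads of Cdkn2a were counted on the gene as a whole, so its p16 transcript and its p19ARF transcript, which encodes an unrelated activator of p53, cannot be separated here. An antisense gene, Gm44732, overlaps 30.7% of the exonic bases of Cdkn1c, and another, AC167363.2, overlaps 7.7% of those of Cdkn1a. Neither is in the count table, and the strand setting of the counting is not given in the sources used here.

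Cdkn1a is a classic target of p53, which binds pairs of CATG cores. The promoter windows of RefSeq on GRCm38.p6 (250 bases before to 50 after each start) were searched for CATG, any 6 bases and CATG again, which reads the same on both strands. Among the 9 windows listed for 6 of the members, only the first window of Cdkn1a held it, 32 bases before the start at chr17:29090979 and 2822 bases before the start at chr17:29093769. The site is shown because Cdkn1a had the largest rise among the 6 members that passed the filter on low counts, with the 2 cores in capitals, at chr17:29090928-29090947 on the plus strand.
Cdkn1a: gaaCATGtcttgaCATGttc
These letters were in 234 of 32851 promoter windows (0.712%) and in 0 of the windows of the 19 p53-list genes described below that have one. The match describes the sequence only.

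Total counts per library were between 17633475 and 33499162, and the 8 muscle fibre markers examined summed to between 117000 and 198000 CPM, read counts scaled to the size of the library, in every library. Several libraries stood apart. Over 13455 genes, 24m replicate 4 departed from the median of the other 24m mice by 1.16 on the log2 scale (SD over genes), against 0.33 to 0.58 in the other 6 mice of its group. The first-run library of 6m replicate 4 had an SD of 0.59, and the second library of the same mouse had 0.28. At 28m, replicate 7 had 0.67, replicate 3 had 0.59 and the other 6 mice 0.31 to 0.54. Results that change without these libraries are given both ways. In whole muscle, fewer cells of a type and less RNA per cell cannot be told apart.

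At 6m, the members spanned a wide range of levels. Scaled to exonic length, CPM per kilobase in the second run averaged 12.8 ± 3.32 for Cdkn1c, 9.93 ± 0.632 for Cdkn1b, 7.87 ± 0.467 for Cdkn2d, 2.94 ± 1.25 for Cdkn1a, 1.58 ± 0.254 for Cdkn2c, 1.55 ± 0.427 for Cdkn2b and 0.105 ± 0.146 for Cdkn2a (SD, n = 7 mice). Cdkn2c and Cdkn2b, next to each other in this order of levels, did not differ beyond their spread. At 28m, Cdkn1a averaged 13.8 ± 10.2 CPM per kilobase, beside 15.6 ± 3.93 for Cdkn1c and 13 ± 2.49 for Cdkn2d (SD, n = 8 mice), and these 3 overlapped. At 24m, the mean of Cdkn1a was 19.9 ± 21.2 CPM per kilobase (SD, n = 7 mice), above that of Cdkn1c at 16.1 ± 8.91 but with an SD larger than the mean.

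**Figure D1:**
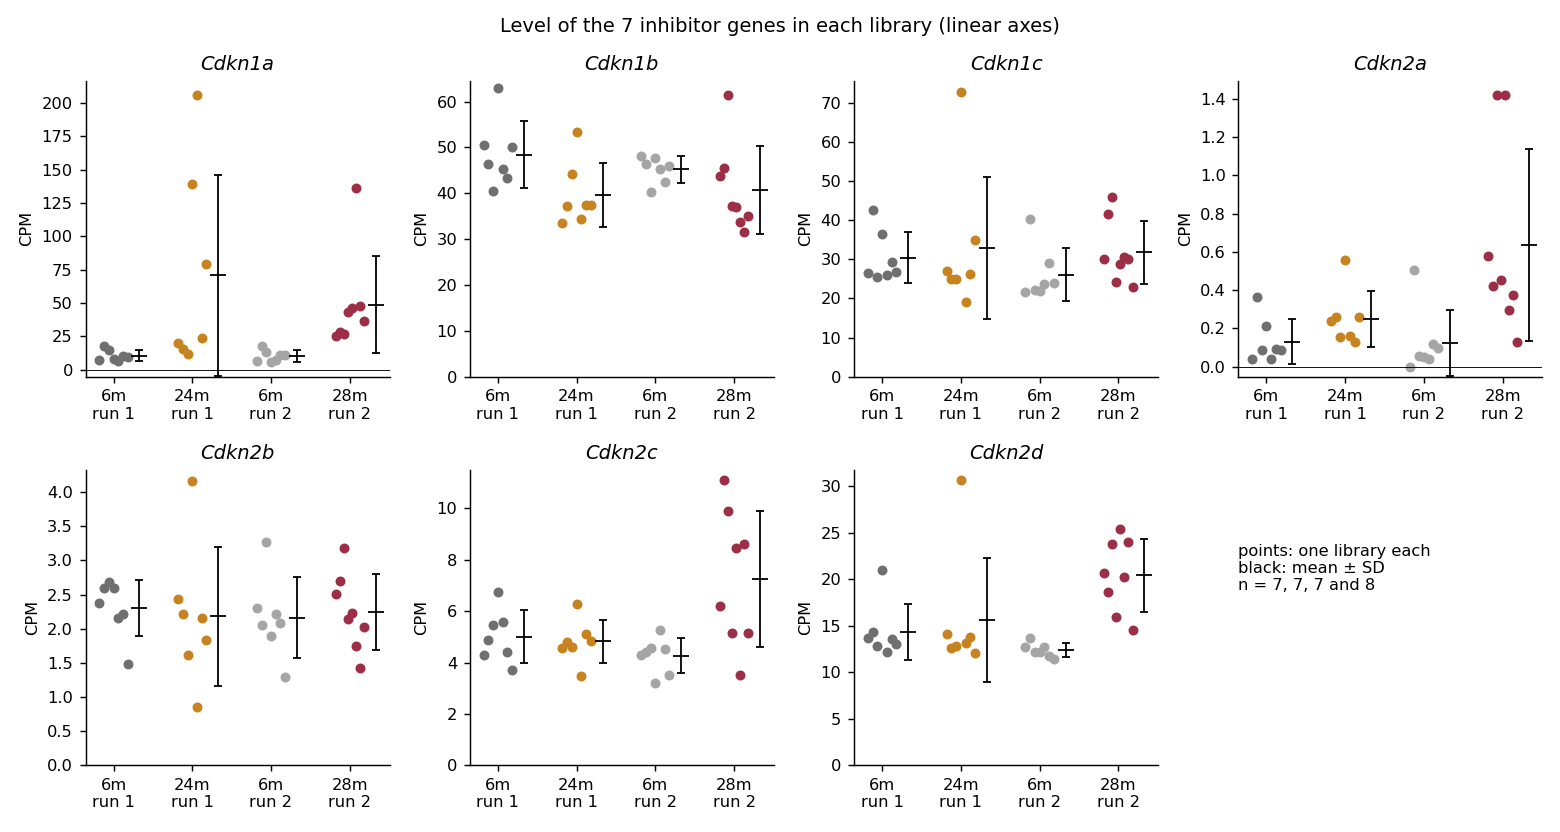
Level of each of the 7 inhibitor genes in CPM (vertical axes, linear) in every library, by age and run, with the mean ± SD in black beside the points. In Cdkn1a and Cdkn2d all 8 libraries at 28m lie above all 7 of the 6m mice in the same run, and 1 library at 24m (replicate 4) is far above its group in Cdkn1c and Cdkn2d.

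Of the members, 3 rose at 28m, Cdkn1a, Cdkn2c and Cdkn2d, and 0 fell among the 6 that passed the filter on low counts. Cdkn2a was under that filter and was higher at 28m by an exact test of its own. Tests were made with the quasi-likelihood test of edgeR with Benjamini-Hochberg adjustment over all 12994 genes tested, called edgeR below, at an adjusted p of 0.05. By that rule 24.3% of the genes tested were higher at 28m and 22.9% were lower, so that a rise or a fall was common in this comparison. All 8 mice at 28m lay above all 7 mice at 6m in 2 of the 6 members tested and in 6.2% of all genes tested.

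Cdkn1a, which encodes p21, changed most among the 6 members that passed the filter. Its level in the 6m mice of the second run was 6.37, 18.2, 13.6, 5.88, 7.26, 11.0 and 10.9 CPM for replicates 1 to 7, with a median of 10.9. The 8 mice at 28m had 25.5 CPM at the lowest, 40.0 at the median and 136 at the highest. Every 28m mouse lay above the highest 6m mouse, and 28m replicate 6 stood apart from the other 7, which did not pass 48.1 CPM. The mean rose from 10.5 ± 4.43 (SD, n = 7) to 48.9 ± 36.4 CPM (SD, n = 8), a 4.59-fold change (log2 fold change 2.20, SE 0.37, edgeR adjusted p = 0.000678). Ranked by rise, Cdkn1a was number 20 of 12994 genes. Without 28m replicate 6 the log2 fold change was 1.77 (edgeR adjusted p = 0.000405).

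Cdkn2d, which encodes the INK4 protein p19, had the most even rise. The 6m mice of the second run were between 11.4 and 13.7 CPM, with a median of 12.2, and the 28m mice between 14.6 and 25.4 CPM, with a median of 20.5. The groups did not overlap. The mean rose from 12.4 ± 0.735 (SD, n = 7) to 20.4 ± 3.91 CPM (SD, n = 8), a 1.61-fold change (log2 fold change 0.69, SE 0.11, edgeR adjusted p = 0.000536). In these libraries the log2 fold changes of all genes move with exonic length. Once this dependence on length and GC content had been taken out of every library as an offset, the log2 fold change of Cdkn2d was 0.28 (edgeR adjusted p = 0.00428), a smaller change on the same side of the threshold.

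Cdkn2c, which encodes p18, rose in most of the old mice. The 28m values for replicates 1 to 8 were 6.21, 11.1, 9.88, 5.14, 8.45, 3.52, 8.62 and 5.15 CPM. The 6m mice of the second run lay between 3.22 and 5.26 CPM, so 5 of the 8 old mice were above all of them and replicates 4, 6 and 8 were within their range. The log2 fold change was 0.73 (SE 0.21, edgeR adjusted p = 0.00983), a 1.66-fold change. Against the first-run libraries of the same 6m mice, which were at 3.71 to 6.76 CPM, it was 0.51 and did not pass (edgeR adjusted p = 0.0807).

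Cdkn2a, the gene of p16 and p19ARF, was close to the limit of detection. The 6m mice of the second run had 0, 12, 1, 1, 1, 3 and 2 counts, and the 28m mice 15, 9, 29, 11, 37, 7, 10 and 3. In CPM, 6m replicate 2 at 0.503 was the young mouse within the range of the old ones, 3 of the 8 old mice lay above it, and the next 6m mouse, replicate 6 at 0.116, was just under the lowest old mouse at 0.127. The mean was 0.636 ± 0.501 CPM at 28m (SD, n = 8) and 0.123 ± 0.172 CPM at 6m (SD, n = 7), a ratio of 5.15 (exact permutation test, two-sided, 6435 assignments of the mice, p = 0.00746, not adjusted over genes). Without 6m replicate 2 the log2 ratio was 3.40 instead of 2.37 (exact permutation p = 0.000666). DESeq2 gave a log2 fold change of 2.32 (adjusted p = 0.00186), with 21.6% of its genes called higher, and edgeR without a filter gave 2.22 (adjusted p = 0.0114), with 16.5% called higher. Counts this low, in RNA of the whole muscle, give no level for any cell type.

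Cdkn1b, Cdkn1c and Cdkn2b did not pass the test at 28m. Cdkn1b, the gene of p27, averaged 40.7 ± 9.62 CPM at 28m (SD, n = 8) and 45.2 ± 2.87 at 6m (SD, n = 7), with 5 of the 8 old mice below all 6m mice and replicate 3 above them at 61.4 CPM. Its log2 fold change was -0.18 with a 95% interval of -0.41 to 0.05 (edgeR adjusted p = 0.211). Without 28m replicate 3 it was -0.28 and passed (edgeR adjusted p = 0.0154). Of the 15 fits with 1 mouse left out, only that passed.

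The paternally imprinted Cdkn1c, the gene of p57, averaged 31.8 ± 8.02 CPM at 28m (SD, n = 8) and 26.1 ± 6.77 at 6m (SD, n = 7), with 6m replicate 2 at 40.3 CPM and the other 6m mice at 21.7 to 29.2. Its log2 fold change was 0.25 with an interval of -0.07 to 0.57 (edgeR adjusted p = 0.211), and 0.40 without 6m replicate 2 (edgeR adjusted p = 0.0357). Of the 15 fits with 1 mouse left out, only that passed. With the length and GC trend removed, the log2 fold change was -0.02. Cdkn2b, the gene of p15 beside Cdkn2a, stayed at 1.42 to 3.18 CPM at 28m and 1.29 to 3.27 CPM at 6m. Its log2 fold change was 0.03, with an interval of -0.35 to 0.40.

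At 24m, 0 of the 6 members tested passed, by edgeR over 13103 genes of which 0.0611% were higher and 0.0229% lower. An unadjusted p under 0.05 was found for 1546 of these genes, Cdkn1a and Cdkn1b among them. All 7 old mice lay above all 6m mice in 0.359% of genes and in none of the members. The 24m mice were less alike than the 28m mice in Cdkn1a, so the single values matter more than the mean.

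In Cdkn1a, the 24m mice had 20.4, 15.5, 12.1, 139, 206, 23.7 and 79.2 CPM for replicates 1 to 7, and the 6m mice of the first run lay between 6.28 and 17.5 CPM. Replicates 4, 5 and 7 were far above the 6m mice, replicates 1 and 6 just above them, and replicates 2 and 3 within their range. The highest of the 24m mice had 17 times the level of the lowest, against 5.34 times at 28m and 3.09 times at 6m in the second run. The log2 fold change was 2.70 (SE 0.61, 5 of 7 mice above all 6m mice), with an unadjusted p of 0.000508 and an edgeR adjusted p of 0.121. By DESeq2, which called 1.06% of its genes higher, the adjusted p was 0.000504. In an edgeR model of all 29 libraries, with the 2 libraries of a 6m mouse treated as independent, 0.988% of genes were called higher. The log2 fold change there was 2.72 (adjusted p = 0.00830). By limma-voom it was 2.01 (adjusted p = 0.365), and 2.02 with the mouse as a block (adjusted p = 0.0729). Whether Cdkn1a passed at 24m thus depended on the fit. By the exact permutation test of mean log2 CPM, without adjustment over genes, p was 0.00408 for Cdkn1a and 0.0291 for Cdkn1b at 24m, and 0.00404 for Cdkn2a at 28m.

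None of the other members passed at 24m. The 24m replicate 4 had the highest value of its group in Cdkn1c (72.7 CPM, the other 6 mice at 19.2 to 34.9), Cdkn2d (30.7 CPM, the others at 12.1 to 14.1), Cdkn2b (4.16 CPM, the others at 0.853 to 2.44), Cdkn2c (6.29 CPM, the others at 3.47 to 5.11) and Cdkn1b (53.3 CPM, the others at 33.5 to 44.2). With this mouse, the log2 fold changes were 0.09 for Cdkn1c, 0.11 for Cdkn2d, -0.09 for Cdkn2b and -0.06 for Cdkn2c. Without it they were -0.22, -0.13, -0.32 and -0.13, and none passed. Cdkn1b had a log2 fold change of -0.30 (95% interval -0.52 to -0.07, edgeR adjusted p = 0.368), with 5 of 7 mice at 24m below all 6m mice. In Cdkn1c, 3 of the 7 were below all 6m mice.

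Cdkn2a had 7, 8, 4, 16, 5, 3 and 8 counts in the 24m mice and 1, 11, 2, 4, 1, 2 and 2 in the 6m libraries of the first run. The mean was 0.250 ± 0.146 CPM at 24m and 0.131 ± 0.117 at 6m (SD, n = 7 each), a ratio of 1.91 that did not pass (exact permutation test, two-sided, 3432 assignments of the mice, p = 0.114). Without 6m replicate 2, whose libraries were the highest of the 6m mice in both runs, the exact permutation p was 0.0117. Of the 14 tests with 1 mouse left out, only that passed. The log2 ratio was between 0.60 and 1.43 over them and 0.93 with all mice. The highest mouse at 24m was replicate 4 at 0.559 CPM, and the next was at 0.259 CPM. Between 3 and 16 counts per library leave the size of any change at 24m poorly set.

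**Figure D2:**
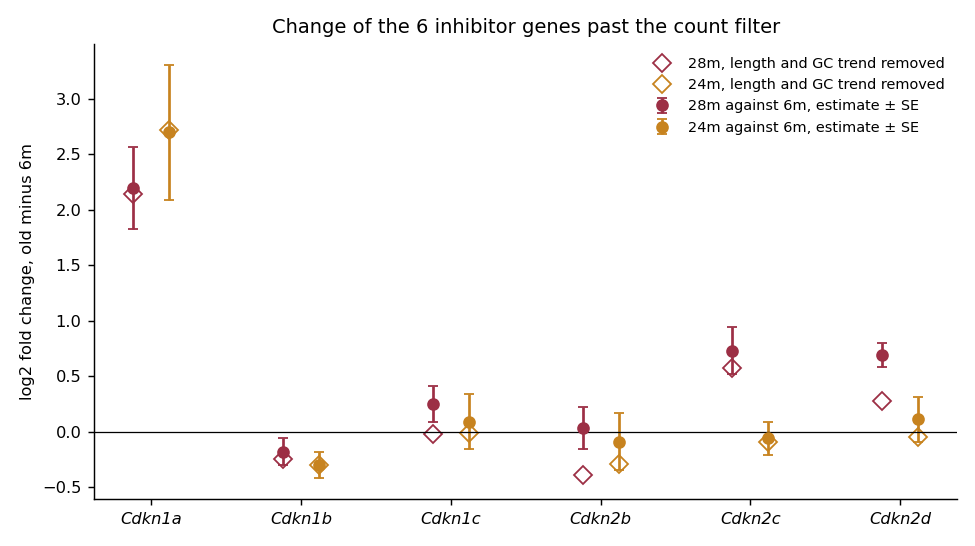
Log2 fold change (vertical axis, old minus 6m) of the 6 inhibitor genes past the count filter, at 28m and 24m, as filled points with the standard error, and as open diamonds with the length and GC trend removed. Cdkn1a lies highest at both ages (2.20 and 2.70), Cdkn2c (0.73) and Cdkn2d (0.69) are next at 28m, and the diamond of Cdkn2d at 28m is at 0.28.

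Whether the change differed between the ages was tested as the 28m change minus the 24m change in a model of all 29 libraries. No gene passed (0.0% of 13455 genes by edgeR, 1611 at an unadjusted p under 0.05, and 0 by limma-voom with the mouse as a block). For Cdkn1a the difference was -0.50 on the log2 scale (95% interval -1.88 to 0.88, edgeR adjusted p = 0.752), too wide to order the ages. For Cdkn2c it was 0.82 (interval 0.30 to 1.35, unadjusted p = 0.00463, edgeR adjusted p = 0.398) and for Cdkn2d 0.60 (interval 0.13 to 1.06, unadjusted p = 0.0177, edgeR adjusted p = 0.399). Without 24m replicate 4, 1657 of 13492 genes passed, 1204 (8.92%) with a positive difference and 453 with a negative one, and Cdkn2c (0.90, edgeR adjusted p = 0.0394) and Cdkn2d (0.85, edgeR adjusted p = 0.0389) were among the positive ones. Whether the differences of these 2 INK4 genes passed therefore rests on whether that mouse is kept. The estimates were above 0 both ways, at 0.82 and 0.90 for Cdkn2c and at 0.60 and 0.85 for Cdkn2d.

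The second libraries of the 6m mice show how far a member moves between 2 libraries of a mouse that were prepared and sequenced apart. Comparing the second run with the first in the same mice, 0.0% of 12884 genes passed (1052 at an unadjusted p under 0.05), and none of the members did. The largest shift was that of Cdkn1c, -0.22 on the log2 scale (unadjusted p = 0.0145, edgeR adjusted p = 0.498). Most of the shift of Cdkn2d came from 6m replicate 4, at 21 CPM in the first run and 12.2 in the second. In Cdkn1a, the 2 libraries of a mouse differed by between -0.49 and 0.21 on the log2 scale, less than the range between mice.

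The genes around the inhibitors in their pathway are described next, at 28m against 6m, and values given for a gene without a unit, or as a median, are log2 fold changes. Each count of a list stands beside 24.3% higher and 22.9% lower over all genes tested. Of the kinases that the INK4 proteins bind, Cdk4 rose at 28m, from 19.7 ± 1.34 (SD, n = 7) to 29.1 ± 6.19 CPM (SD, n = 8), or by 0.54 (SE 0.12, edgeR adjusted p = 0.00246). Cdk6 was under the filter, with 0.125 to 0.579 CPM at 6m and 0.140 to 0.510 CPM at 28m. Among the 9 CDK and cyclin genes tested, 2 were higher and 3 lower, and the median was -0.04 (0.0091 over all genes tested). The number lower was 1 without 28m replicate 2, without 6m replicate 2, or with the length and GC trend removed. The S-phase cyclin Ccna2 was the other that rose (1.81, edgeR adjusted p = 0.00702), and the D-type cyclins Ccnd2 (-0.38) and Ccnd3 (-0.39) and the phosphatase gene Cdc25a (-0.26) fell. Ccnd1, the D-type cyclin of cycling cells, had a log2 fold change of 0.35 (edgeR adjusted p = 0.356).

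Downstream of these kinases, 4 of 16 RB and E2F genes tested were higher at 28m and 2 lower, with a median of 0.20. Without 28m replicate 7 the median was -0.11, and 4 were lower without 28m replicate 4 or replicate 8. The activator E2f2 rose by 1.07, and Lin52 and Lin37, subunits of the DREAM complex that represses cell cycle genes, rose by 0.65 each. E2f6 and E2f3 fell, with log2 fold changes of -0.41 and -0.35. Rb1, the gene of the retinoblastoma protein, was at 0.38 (edgeR adjusted p = 0.144). Of 16 proliferation genes tested, 9 were higher and 0 lower, with a median of 0.53. Ube2c (1.73), Top2a (1.56) and Rrm2 (1.35), all of which serve DNA synthesis or mitosis, rose most, though from low levels of 0.315 ± 0.134, 0.602 ± 0.370 and 0.795 ± 0.247 CPM at 6m (SD, n = 7). Mki67, a marker of cycling cells, was at 1.95 ± 2.15 CPM at 28m (SD, n = 8) and 0.897 ± 0.727 CPM at 6m (SD, n = 7), and did not pass (edgeR adjusted p = 0.151). With 1 mouse left out in turn, between 4 and 10 of the proliferation genes passed as higher, with 4 without 28m replicate 5 and 4 without 28m replicate 7. Summed over the list, the proliferation genes were at 115 CPM in 28m replicate 1, within the 109 to 118 CPM of the 6m mice, and at 125 to 170 CPM in the other 7 old mice.

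The list of p53 and its targets, from which Cdkn1a was left out, gave 10 higher and 3 lower of 24 genes tested at 28m, with a median of 0.22. Gadd45a, a stress gene, rose most, from 18.6 ± 4.11 CPM (SD, n = 7) to 82.1 ± 47.2 CPM (SD, n = 8), with all 8 old mice above all 6m mice (log2 fold change 2.11, SE 0.30, edgeR adjusted p = 0.000346). Ddit4, an inhibitor of mTORC1, rose by 1.09, Bax, which opens mitochondria in apoptosis, by 0.78, and Eda2r, a receptor of the TNF receptor family, by 0.73 (edgeR adjusted p = 0.0478). Polk (-0.76), Rrm2b (-0.41) and Ccng1 (-0.24) fell. Trp53 (0.08, edgeR adjusted p = 0.403) and Mdm2 (-0.05, edgeR adjusted p = 0.727), the gene of p53 and that of the ligase which degrades it, did not pass. With 1 mouse left out in turn, 7 to 10 genes of the list were higher and 2 to 5 lower, with the most lower, 5, without 28m replicate 6 or replicate 8. With the length and GC trend removed, 6 were higher and 3 lower, with a median of 0.07.

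Of 23 regulators of the INK4 and Kip genes, 5 were higher and 5 lower at 28m, beside 24.3% and 22.9% of all genes tested, and the median was -0.05. Id2 (1.09) and Id1 (1.06), inhibitors of bHLH factors, and Cks1b (0.88), a cofactor in the breakdown of p27, rose. Smad3 (-1.24), which carries TGF-beta signals, Foxo3 (-1.24) and Kdm6b (-0.93), a demethylase that acts on the Cdkn2a locus, fell.

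Of 40 listed genes of the senescence-associated secretory phenotype, 27 had enough counts, and 9 were higher and 6 lower at 28m, beside 24.3% and 22.9% of all genes tested, with a median of 0.27. Without 28m replicate 7, 6 were higher and 6 lower. Summed over the list, the level averaged 1130 ± 124 CPM at 28m (SD, n = 8) and 1520 ± 144 CPM at 6m (SD, n = 7). The matrix and cytokine gene Spp1 (3.34, edgeR adjusted p = 0.00704), the chemokine Cxcl10 (2.58, edgeR adjusted p = 0.000232) and the protease inhibitor Timp1 (2.43, edgeR adjusted p = 0.00774) rose most, and all 8 old mice were above all 6m mice in Cxcl10. Without 28m replicate 7, Spp1 was at 1.66 (edgeR adjusted p = 0.00988). Mmp9 (-1.23), Igfbp5 (-0.84) and Vegfa (-0.53) fell. Il6 and Gdf15 were under the filter, at 0.265 ± 0.118 and 0.286 ± 0.185 CPM at 28m (SD, n = 8) and at 0.0784 ± 0.0584 and 0.0657 ± 0.0565 CPM at 6m (SD, n = 7).

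Nuclear, lysosomal and survival genes linked to senescence gave 5 higher and 4 lower of 16 tested, with a median of 0.22, and between 2 and 4 lower with 1 mouse left out in turn. The number was 2 without 28m replicates 2, 3 or 7 and without 6m replicates 3 or 5. Hmgb2, a chromatin protein that is lost from senescent nuclei, rose by 1.01, Bcl2l1, which encodes the survival protein BCL-XL, by 0.51, and Fuca1, a lysosomal enzyme, by 0.45. Atm (-0.55), Bcl2 (-0.52) and Trp53bp1 (-0.47) fell. Lmnb1, whose loss is a common mark of senescence, had a log2 fold change of -0.19 (edgeR adjusted p = 0.149). With 1 mouse left out in turn, Foxo3, Ccng1 and Bcl2 passed in 4 of 15 fits, Top2a and Eda2r in 6, Ccnd3 in 8, Trp53bp1 in 9 and Ccnd2 in 12, and the other genes of these lists named above as higher or lower passed in every fit that tested them (10 for Ube2c, which was under the filter in the others, and 15 for the rest). At 24m, 0 genes of these 7 lists passed by edgeR, and 38 of 130 tested had an unadjusted p under 0.05, against 11.8% of all genes tested.

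**Figure D3:**
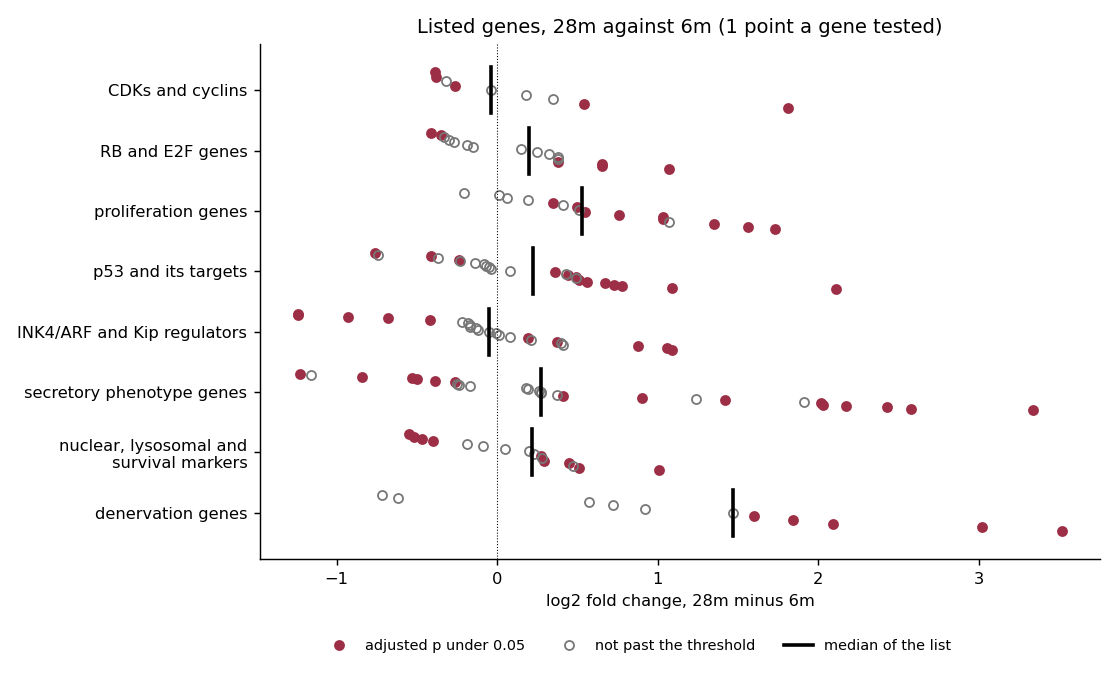
Log2 fold change (horizontal axis, 28m minus 6m) of each tested gene of 8 lists, filled where the edgeR adjusted p is under 0.05 and open where it is not, with the median of each list as a black bar. The lists have genes on both sides of 0, and the denervation genes have the highest median, 1.47. Without 28m replicate 6 that median is 0.39, below the 0.55 of the proliferation genes.

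Cdkn1a was compared with genes that respond to loss of the nerve. Of 11 denervation genes, 5 were higher and 0 lower at 28m, and the median was 1.47. Without 28m replicate 6, 5 were higher and 1 lower, and the median was 0.39. Among the 5 were the fetal acetylcholine receptor subunit Chrng (3.52, edgeR adjusted p = 0.00322), the factor Myog (2.09), the receptor subunit Chrna1 (1.84) and the factor Runx1 (1.60). Without 28m replicate 6, Chrng was at 2.56 (edgeR adjusted p = 0.00344) and Chrna1 at 1.1 (edgeR adjusted p = 0.00129). The other 6 genes did not pass, with Chrnd at 1.47, Ncam1 at 0.92, Myh3 at 0.72, Myh8 at 0.57, Musk at -0.62 and Hdac4 at -0.72. Without 28m replicate 6, Chrnd was at 0.37, Ncam1 at 0.39, Myh8 at -0.34 and Musk at -0.87, none of which passed, and Hdac4 was at -0.91 and passed (edgeR adjusted p = 0.0239). Myh3 was at 1.43 without 6m replicate 2 and passed (edgeR adjusted p = 0.00571). In Musk and in Hdac4, 5 of the 8 old mice were below all 6m mice. At 24m none passed by edgeR, with a median of 2.28, and 8 of the 11 had an unadjusted p under 0.05.

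Over the 8 mice at 28m, log2 CPM of Cdkn1a and the mean log2 CPM of the 11 genes had a Pearson r of 0.942 (exact permutation p = 0.00275, 0.0357 adjusted over 26 relations) and a Spearman rho of 0.738 (exact permutation p = 0.0458, 0.198 adjusted). Without the 2 mice farthest from the median of the denervation genes, r was 0.771. The lowest and the highest mouse in the mean of the denervation genes were replicate 3 (1.85) and replicate 6 (5.04), at 26.8 and 136 CPM of Cdkn1a. At 24m the mice fell into separate clusters in Cdkn1a, so no correlation is given. There, replicates 4, 5 and 7, with 139, 206 and 79.2 CPM of Cdkn1a, had means of 4.48, 6.10 and 4.12 for the denervation genes, and the other 4 mice had 1.84 to 2.83. The macrophage markers were also higher in replicates 7, 4 and 5, at 311, 288 and 156 summed CPM, than in replicates 1, 3 and 6, at 63.0 to 87.2. The highest in them was replicate 2, at 585 summed CPM and 15.5 CPM of Cdkn1a. Over the 8 mice at 28m, the macrophage markers and Cdkn1a had r = 0.165 (exact permutation p = 0.578, adjusted p = 0.963), rho = 0.786 (exact permutation p = 0.0279, adjusted p = 0.181) and r = 0.343 without the 2 farthest mice. The part of macrophages in the levels of Cdkn1a was not tested.

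Some single genes were also highest in 24m replicates 4, 5 and 7. Chrng was at 15, 32.1 and 7.24 CPM in 24m replicates 4, 5 and 7 and at 0.0769 to 1.80 CPM in the other 4. Gadd45a was at 627, 282 and 91.1 CPM in these 3 mice and at 25.3 to 37.9 CPM in the others, and Eda2r at 62.7, 139 and 91.9 CPM against 24.2 to 31.3 CPM. Rb1 was at 79.3, 117 and 48.5 CPM against 27.5 to 36.4 CPM. Chrnd was at 4.16, 69.1 and 5.72 CPM against 2.62 to 3.72 CPM. Musk was highest in replicates 5 and 7, at 54.7 and 18 CPM, and lowest in replicate 4, at 7.86 CPM. At 28m, Eda2r was lowest in replicate 7, at 14.7 CPM, the mouse with the second highest Cdkn1a. The muscle fibre markers summed to 117000 and 131000 CPM in 24m replicates 5 and 7, below the 163000 to 181000 CPM of the 6m mice, and to 169000 CPM in replicate 4 and 135000 CPM in replicate 2. Their part in these levels was not tested.

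**Figure D4:**
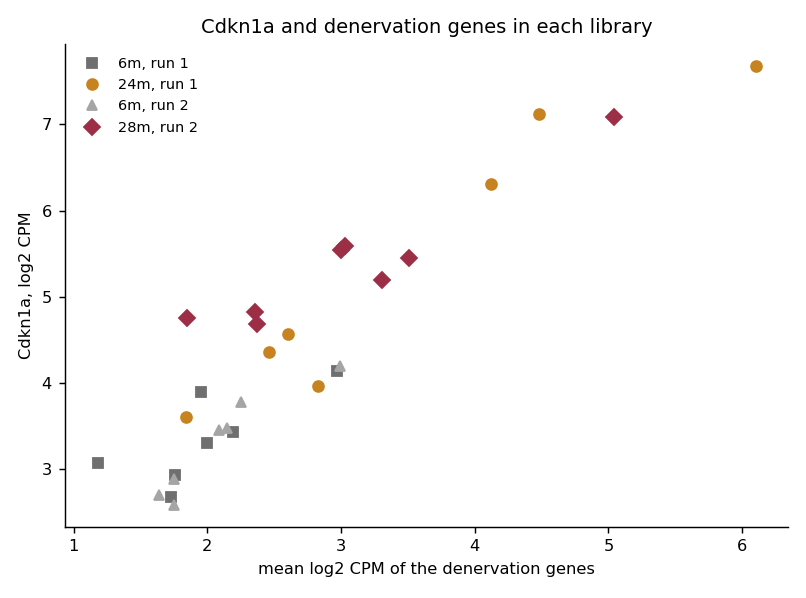
Log2 CPM of Cdkn1a (vertical axis) against the mean log2 CPM of 11 denervation genes (horizontal axis), 1 point a library, by age and run. The 24m replicates 4, 5 and 7 and 28m replicate 6 lie at the upper right, and all 28m mice lie above the 6m mice on the vertical axis.

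Of the other members at 28m, none passed after adjustment over the 26 relations. The nearest was Cdkn2c, with r = -0.842 to the denervation genes (exact permutation p = 0.00722, adjusted p = 0.0626), rho = -0.881 (exact permutation p = 0.00724, adjusted p = 0.133) and r = -0.614 without the 2 farthest mice. The remaining members also ran the opposite way to Cdkn1a, with r = -0.728 for Cdkn1b, -0.68 for Cdkn2b, -0.533 for Cdkn1c, -0.511 for Cdkn2a and -0.267 for Cdkn2d. Replicate 6, highest in Cdkn1a, was lowest in Cdkn2c at 3.52 CPM.

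The genes most like a member over the 22 mice, with the 2 libraries of a 6m mouse averaged, differed from member to member. These likenesses are descriptions over mice that share ages, runs and the libraries named above. For Cdkn1a they were Cpne2 (r = 0.955), Runx1 (0.954) and Chrng (0.953). For Cdkn2d they were Mrps34 (0.973), Mrpl10 (0.969) and Gadd45gip1 (0.969), all 3 of which encode proteins of the mitochondrial ribosome. For Cdkn2c they were Gemin6 (0.895), Slc50a1 (0.884) and Med22 (0.874), and for Cdkn1c Sppl3 (0.922), Cdk2ap1 (0.848) and Fbxo33 (0.840). Those of Cdkn1b were Cyb5r4 (0.833), Ubl3 (0.810) and Ado (0.809), and those of Cdkn2b Rpia (0.785), Ryk (0.769) and Cops7b (0.768). Spearman rho was 0.906 to 0.920 for the genes of Cdkn1a, 0.864 to 0.910 for Cdkn2d and 0.761 to 0.826 for Cdkn2c. For Cdkn1c it was 0.618 to 0.782, for Cdkn1b 0.775 to 0.828 and for Cdkn2b 0.514 to 0.636. In 24m replicate 4, Mrps34 was at 144 CPM and Gadd45gip1 at 109 CPM, with group medians of 51.9 and 39.8 CPM. Between members, r was highest for Cdkn2c with Cdkn2d (0.654) and lowest for Cdkn1a with Cdkn1b (-0.430). Among the 3 members that rose at 28m, r was 0.486 for Cdkn1a with Cdkn2d and 0.0694 for Cdkn1a with Cdkn2c.

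Markers of other cells moved at 28m as well, and their part in the results above was not tested. All 5 endothelial markers and 4 of 5 pericyte and smooth muscle markers were lower, and 4 of 7 fibroblast and 2 of 3 tested satellite cell markers. The endothelial markers summed to 173 to 298 CPM at 28m and 350 to 381 CPM at 6m of the same run, without overlap. Of 8 macrophage markers, 0 were higher and 1, Cd163, was lower (-0.79, edgeR adjusted p = 0.0139), with sums of 86.0 to 678 CPM at 28m and 65.7 to 220 CPM at 6m. The highest of these was 28m replicate 7, at 48.1 CPM of Cdkn1a, and the next mouse at 28m had 129 CPM of macrophage markers. Of 4 adipocyte markers 1 was higher, with sums of 148 to 596 CPM at 28m and 160 to 191 CPM at 6m. With 1 mouse left out in turn, between 1 and 5 of the fibroblast, 3 and 5 of the endothelial and 1 and 3 of the macrophage markers were lower, and between 0 and 2 of the macrophage and 1 and 3 of the adipocyte markers were higher. The macrophage markers numbered 3 lower without 28m replicate 7 and 2 higher without 6m replicate 2. Lymphocyte markers were all under the filter, at 0.512 to 2.69 summed CPM at 28m. In 24m replicate 4, the endothelial markers were at 108 CPM and the adipocyte markers at 576 CPM, against 278 to 374 and 124 to 211 CPM in the other 24m mice.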

How the data were processed

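Poly-A RNA of TA muscle was sequenced in 29 libraries. Per the labels and the study's methods, the authors aligned reads to mm10 with STAR 2.5.4b, and they deposited raw read counts per gene without normalization. The table has 22537 symbols, and each column was matched to a sample by its name. The members and all gene lists were chosen with earlier results of these data known.

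The tests used edgeR 4.0.16 (R 4.3.3, filterByExpr, TMM scaling, quasi-likelihood F test, Benjamini-Hochberg adjustment over all genes, threshold 0.05) within each run. CPM values are scaled over all 29 libraries, and log2 CPM uses a prior count of 2. Intervals are the estimate ± 1.96 standard errors. Cdkn2a, under the filter, was compared by an exact permutation test, and other genes under it were not tested. Scripts were tested on simulated data. Named genes were the members, a set of 13 senescence and cell cycle genes, and up to 3 genes with the largest rise and fall in each list, besides the 3 genes most like each member. A pair of genes named by this rule are not reported here. The 2 libraries of a 6m mouse were paired by their titles, and their deviations from the group means correlated at 0.218 to 0.814 across genes in the 7 mice. The titles of some mice share a number whose meaning the labels do not give, and the tests treat the mice of an age as independent. Gene positions and exonic lengths were read from GENCODE (GRCm38), where 20202 symbols matched directly and 1897 through a synonym. Promoters were those of RefSeq. Alternatives were DESeq2 1.42.0, limma-voom 3.58.1, RLE and upper-quartile scaling, 2 other filters, the 6m libraries of the other run, a model of all 29 libraries, the mouse as a block, removal of a trend with length and GC content, and leaving out each mouse. The leave-one-out counts of the lists and the exact tests of the members past the filter were added after the data were seen. Total counts were 17633475 to 33499162 per library.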

Additional observations from a re-analysis of the deposited data

Results flagged for a closer look

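Within the 28 groups formed by the 7 members and the 4 sets of libraries, the highest or lowest library was farther from the next one than Dixon's 95% limit allows in 9. Chance gives about 1 in 20 where groups are independent and their values normal. Here the values are linear CPM and the groups share libraries, so that rate is only a rough guide. At 28m the libraries set apart were replicate 6 in Cdkn1a (136 CPM, next 48.1) and replicate 3 in Cdkn1b (61.4 CPM, next 45.5). At 24m, replicate 4 was set apart in Cdkn1c (72.7 CPM, next 34.9), Cdkn2a (0.559 CPM, next 0.259) and Cdkn2d (30.7 CPM, next 14.1). Among the 6m libraries of the second run, replicate 2 was set apart in Cdkn1c (40.3 CPM, next 29.2) and Cdkn2a (0.503 CPM, next 0.116). Among those of the first run, replicate 7 was low in Cdkn2b (1.48 CPM, next 2.16) and replicate 4 high in Cdkn2d (21 CPM, next 14.3).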

How the results depend on the processing

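At 28m, Cdkn1a (log2 fold change 1.77 to 2.39) and Cdkn2d (0.28 to 0.75) passed under all 25 alternatives each, and Cdkn2a (log2 ratio 1.81 to 3.40) under all 18. Cdkn2c passed under 24 of 25, and against the 6m libraries of the other run it was 0.51. With 1 mouse left out in turn, Cdkn1b was between -0.28 and -0.13 at 28m, Cdkn1c between 0.17 and 0.40, and Cdkn2b between -0.07 and 0.15. At 24m, Cdkn1c was then between -0.22 and 0.20, Cdkn2b between -0.32 and 0.06, Cdkn2c between -0.13 and 0.01, Cdkn2d between -0.13 and 0.21, and the log2 ratio of Cdkn2a between 0.60 and 1.43. Removal of the length and GC trend gave -0.02 for Cdkn1c and -0.39 for Cdkn2b at 28m, and -0.01 for Cdkn1c and -0.05 for Cdkn2d at 24m. Limma-voom gave -0.01 for Cdkn1c at 24m. The 6m libraries of the other run gave -0.06 for Cdkn2b at 28m and 0.16 for Cdkn2c at 24m. Cdkn1a passed at 24m by DESeq2 (2.70) and in the model of 29 libraries (2.72), so that 1 member instead of 0 passed in each. With the mouse as a replicate block, the difference of Cdkn1a between the ages was 0.08 (consensus correlation 0.735), and the block changed no other direction and no call among the members. Leaving out mice moved that difference between -0.91 and 0.06, that of Cdkn2b between -0.02 and 0.37, of Cdkn2c between 0.68 and 0.91, and of Cdkn2d between 0.48 and 0.85, with 0 to 2 members passing. Without a replicate block, the comparison of the runs at 6m again gave 0 genes. Apart from the fits that leave out a library, the causes of these changes were not tested. Counts of 0 to 37 for Cdkn2a limit its precision.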
